A study of Mus musculus with 16 samples.

Results

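The genes described here are 8 genes of the somatic cells of the testis: *Sox9*, *Amh*, *Wt1*, *Gata4*, *Nr5a1*, *Cyp17a1*, *Star* and *Hsd3b1*. They were listed by name, out of 21887 protein-coding genes placed on the chromosomes of the RefSeq table of GRCm38, and their chromatin was read in cells isolated as male germ cells. For each gene, the ATAC-seq peaks that fell between its outer bounds or within 20 kb on either side were collected, and this interval is called its window. ATAC-seq marks DNA that a transposase can reach. The question is how much accessible chromatin of somatic kind these germ cell lists hold, by stage and genotype.

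The series compares gonocytes, the germ cells of the testis before spermatogenesis begins, of *Morc1* (+/-) and *Morc1* (-/-) mice, called heterozygous and knockout below. Cells came from mice that carry the Mvh-Venus transgene, in both genotypes, at the embryonic stages E13.5 and E16.5 and on postnatal days 0 and 3 (P0 and P3). The 16 samples form 8 groups of 2, and each group has 1 peak list, with no list per sample. Both genotypes carry at least 1 mutant *Morc1* allele, so no wild-type mice are among the groups, and the labels do not say whether animals were pooled or how pure the isolated cells were.

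Sertoli cells surround the germ cells and, in the fetus, make anti-Müllerian hormone, which removes the female duct. *Sox9*, switched on downstream of *Sry*, directs their formation, and its product acts on *Amh* together with those of *Nr5a1*, *Gata4* and *Wt1*. Leydig cells lie between the cords and make androgens: *Star* brings cholesterol into mitochondria, and *Hsd3b1* and *Cyp17a1* encode enzymes of the following steps. *Ddx4*, also called *Mvh*, encodes a helicase of germ cells, and the reporter of these mice is named after it.

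The lists held 39559 to 67258 peaks, nearly all 501 bp wide. The heterozygous and knockout lists were identical in all 67258 rows at P0 and in all 44760 rows at P3. They are used once each, without a genotype, which leaves 6 distinct lists. No peak has a height or a score and no read counts were used here, so the depth is unknown and no value below has a spread between samples or a test. In such bulk data, few cells with an open site and weak accessibility in many cells cannot be told apart.

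Of the 8 genes, only *Wt1* had a peak within 1000 bp of an outer end, and it had one in 5 of the 6 lists. That is 1 of 8 genes at E13.5, at E16.5 and at P0, and 0 of 8 at P3. The other 7 genes had none in any list. Only outer bounds were used, so a peak at a transcription start inside a gene is not counted here. Over all protein-coding genes, a peak lay within 1000 bp of an outer end in 58.8% (heterozygous) and 59.0% (knockout) of genes at E13.5, in 60.0% and 60.9% at E16.5, in 63.0% at P0 and in 58.3% at P3. Over the 6 lists, 6983 of 21887 genes (31.9%) had no such peak in any list.

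Within the gene bounds, the number of the 8 genes with a peak was 4 in E13.5 heterozygous and 3 in E13.5 knockout cells, 2 in each E16.5 list, 3 at P0 and 1 at P3. Among all protein-coding genes the share with a peak within bounds was 66.5%, 66.7%, 68.3%, 69.3%, 71.6% and 66.5% in the same order. A peak lay in the window of 6 or 7 of the 8 in every list, against 80.5%, 79.9%, 84.3%, 85.6%, 87.9% and 83.7% of all genes. The windows together held 15 peaks in E13.5 heterozygous, 17 in E13.5 knockout, 15 in E16.5 heterozygous and 19 in E16.5 knockout cells, 16 at P0 and 11 at P3. The median per gene was 2, 2, 1.5, 1.5, 1.5 and 1, against 2 for all protein-coding genes in each list.

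Peaks of different lists that overlapped were joined into sites, which gave 30 sites from 93 peaks. Of these sites, 12 lay in or at the end of the gene itself. The other 18 lay outside: 4 at an outer end of a protein-coding neighbour, 4 at an end of another annotated gene, 3 inside another gene and 7 between genes. Of the 30 sites, 8 (26.7%) were present in all 6 lists and 11 (36.7%) in 1 list only. Joined in the same way, all peaks of the 6 lists gave 107032 sites, of which 16.3% were in all 6 lists and 33.1% in 1 list only. All 4 sites at protein-coding neighbours were present in all 6 lists. A neighbour's end without a peak forms no site and is not counted here. Of the 12 sites in or at the end of the 8 genes, 2 were in all 6 lists, both of them in *Gata4*. That share is close to the 16.3% of all sites.

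**Figure D1:**
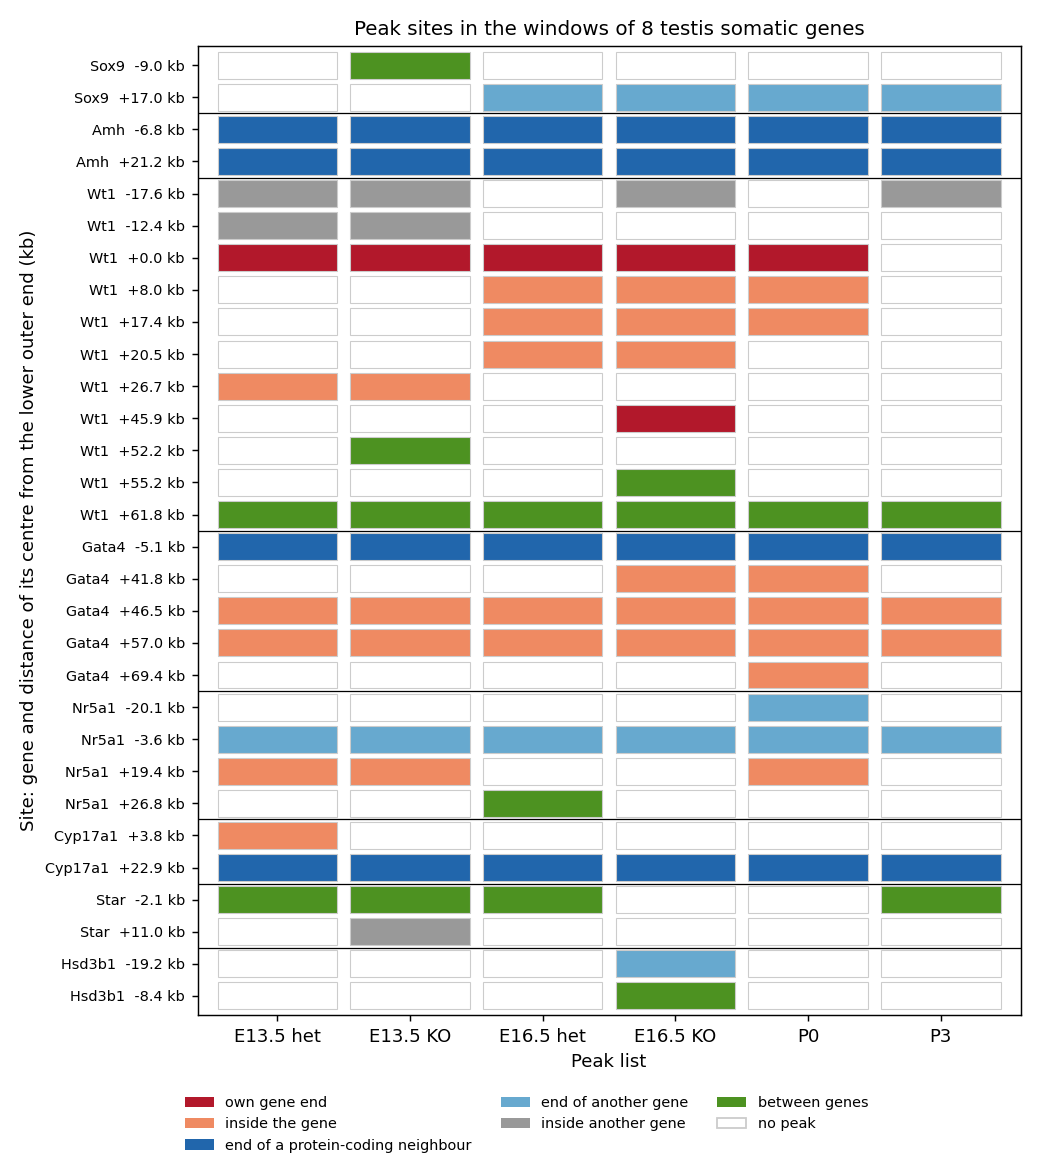
Presence of each of the 30 sites (rows, labelled by gene and by the distance of the site's centre from the lower outer end of that gene in kb) in the 6 distinct peak lists (columns). A coloured box is a peak and a white box no peak, and the colour gives the position class. The dark blue rows, at ends of protein-coding neighbours, are filled in all 6 lists. The red rows, at an outer end of the gene itself, occur at *Wt1* alone.

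Promoter sequences are shown first: those of *Hsd3b1* and its relative *Hsd3b6*, without a peak, and those of *Oaz1* and *Borcs7*, which hold recurrent peaks in the windows of *Amh* and *Cyp17a1*. The RefSeq promoter table of GRCm38.p6 gives 250 bases before to 50 bases after a start. It matched 1 of the 8 genes, *Hsd3b1*; *Sox9*, *Amh*, *Wt1*, *Gata4*, *Nr5a1*, *Cyp17a1* and *Star* had no entry. Each sequence reads 5′ to 3′ along the gene, and capitals mark CpG dinucleotides.

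*Hsd3b1*, chr3:98859745-98860044, minus strand, no peak in any of the 6 lists: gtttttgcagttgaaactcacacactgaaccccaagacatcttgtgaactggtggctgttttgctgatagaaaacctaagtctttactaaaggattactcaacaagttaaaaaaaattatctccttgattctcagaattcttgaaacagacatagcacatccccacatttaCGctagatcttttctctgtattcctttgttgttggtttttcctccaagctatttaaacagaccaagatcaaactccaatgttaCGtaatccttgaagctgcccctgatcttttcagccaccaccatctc

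*Hsd3b6*, chr3:98814394-98814693, minus strand, a Leydig cell gene of the same enzyme family, no peak in any list: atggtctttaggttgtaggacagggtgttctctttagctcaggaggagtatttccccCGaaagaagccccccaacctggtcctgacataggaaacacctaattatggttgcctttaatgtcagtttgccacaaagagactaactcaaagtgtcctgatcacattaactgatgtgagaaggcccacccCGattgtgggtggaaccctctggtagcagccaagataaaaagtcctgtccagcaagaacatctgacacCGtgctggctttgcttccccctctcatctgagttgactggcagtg

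*Oaz1*, chr10:80826406-80826705, plus strand, in the window of *Amh*, a peak in all 6 lists: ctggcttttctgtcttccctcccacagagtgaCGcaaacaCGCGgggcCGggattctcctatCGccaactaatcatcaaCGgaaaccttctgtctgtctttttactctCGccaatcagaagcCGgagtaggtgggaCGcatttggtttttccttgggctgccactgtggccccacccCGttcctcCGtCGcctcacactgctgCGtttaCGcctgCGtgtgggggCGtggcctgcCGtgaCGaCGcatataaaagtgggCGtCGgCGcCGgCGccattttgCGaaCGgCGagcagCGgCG

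*Borcs7*, chr19:46689656-46689955, plus strand, in the window of *Cyp17a1*, a peak in all 6 lists: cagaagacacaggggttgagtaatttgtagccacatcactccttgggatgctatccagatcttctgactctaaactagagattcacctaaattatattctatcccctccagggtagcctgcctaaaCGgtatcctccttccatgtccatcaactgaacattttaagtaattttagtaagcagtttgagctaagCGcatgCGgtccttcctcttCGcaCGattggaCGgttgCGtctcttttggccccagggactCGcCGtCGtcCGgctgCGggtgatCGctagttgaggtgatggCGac

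The *Hsd3b1* promoter held 2 CpGs at a GC content of 38.7%, and that of *Hsd3b6* 3 CpGs at 49.0%. The *Oaz1* promoter held 29 CpGs at 60.0% GC and that of *Borcs7* 14 at 49.3%. GATA factors such as the product of *Gata4* bind the letters AGATAA or TGATAA, which were searched on both strands. The *Hsd3b1* promoter had 1 match, on the opposite strand, as TTATCT from base 117, and *Hsd3b6* had 1, AGATAA from base 220. At least 1 match was present in 18.6% of the 32851 promoters of the table. The letters AAGGTCA, bound by the product of *Nr5a1* and related receptors, were in neither *Hsd3b1* nor *Hsd3b6* on either strand, and in 4.72% of all promoters. A match describes letters only.

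CpG count and peak presence ran together over all promoters. Of the 12496 promoters with 0 to 4 CpGs, the class of *Hsd3b1*, 3.35% to 4.14% overlapped a peak, depending on the list. The share was 18.2% to 24.8% with 5 to 9 CpGs, 64.9% to 69.0% with 10 to 19 and 83.2% to 86.1% with 20 or more. The promoter of *Hsd3b1* thus shared the absence of a peak with 95.9% to 96.6% of the promoters of its class. This comparison could be made for 1 of the 8 genes only.

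**Figure D2:**
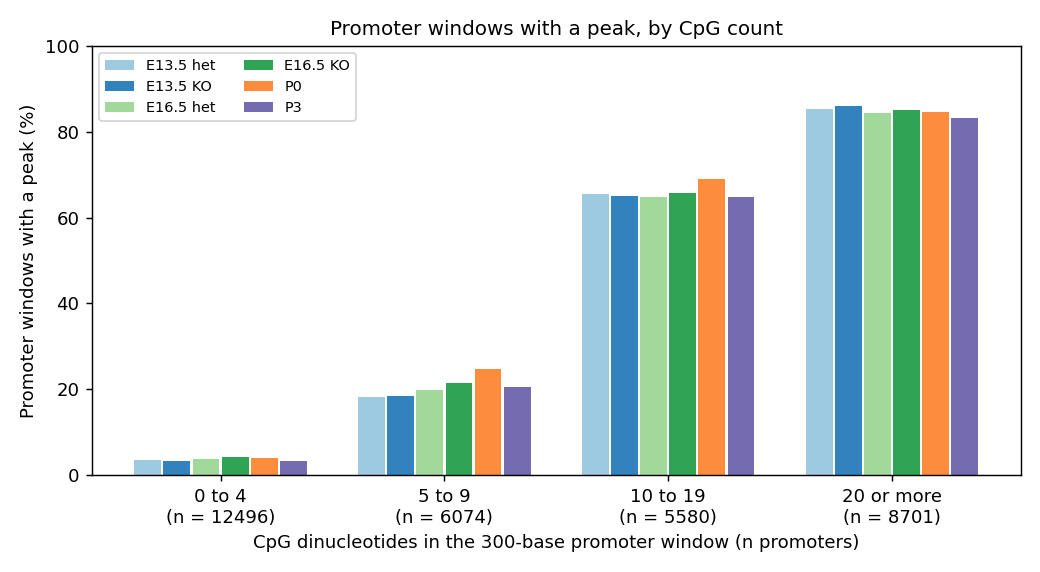
Share of RefSeq promoter windows of 300 bases that overlap a peak (y axis, percent) by the number of CpG dinucleotides in the window (x axis), with 1 bar per peak list. The share rises from at most 4.14% in the class with 0 to 4 CpGs to at least 83.2% in the class with 20 or more, in every list.

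The Sertoli cell genes had no peak of their own. *Sox9* (gene ID 20682) spans 112782210 to 112787757 on chromosome 11. Its window held 0 peaks in E13.5 heterozygous cells and 1 in each of the other 5 lists, none within the gene. The E13.5 knockout peak, at 112772947 to 112773447, lay 9.01 kb below the gene and was found in no other list. The 4 later lists instead had a peak above the gene, at 112798867 to 112799367 in E16.5 heterozygous and 112798863 to 112799363 in E16.5 knockout cells. It lay at 112798874 to 112799374 at P0 and at 112799040 to 112799540 at P3. This site overlaps or borders the upper end of *Gm11681*, a long non-coding RNA gene, and is 11.4 kb from *Sox9*. Both E16.5 genotypes thus had it and both E13.5 genotypes lacked it.

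*Amh* (gene ID 11705), the gene of anti-Müllerian hormone, spans 80805240 to 80807679 on chromosome 10. Its window held 2 peaks in every list and none within the gene. The lower site, centred 6.77 kb below *Amh*, covers the divergent ends of *Plekhj1* and *Sf3a2*. The upper site, centred 18.8 kb above it, lies at the start of *Oaz1*, which encodes an inhibitor of polyamine synthesis and whose promoter is printed above. The upper end of *Sf3a2*, a splicing factor gene, is 0.318 kb from the lower end of *Amh*, and it too had no peak. A count of window peaks alone would therefore place *Amh* at the median of all genes, 2, on peaks that lie at its neighbours' ends.

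*Wt1*, *Gata4* and *Nr5a1* encode transcription factors of the early gonad, which support and steroid-making cells share. Their windows held 62 of the 93 peaks (66.7%) and made up 262 of the 501 kb of all 8 windows (52.3%). *Wt1* (gene ID 22431) spans 105126529 to 105173614 on chromosome 2 and had 11 sites in a window of 87.1 kb. *Gata4*, with the longest window (113 kb), had 5. The *Wt1* window held 5, 6, 5, 8, 4 and 2 peaks in the order E13.5 heterozygous, E13.5 knockout, E16.5 heterozygous, E16.5 knockout, P0 and P3. In the E16.5 knockout list 98.4% of all protein-coding genes had as few peaks or fewer, and at P3 66.7% did. 

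The site at the lower end of *Wt1*, from which the gene is known to be transcribed, was at 105126338 to 105126838 in E13.5 heterozygous and 105126307 to 105126807 in E13.5 knockout cells. It was at 105126284 to 105126784 and 105126320 to 105126820 in the E16.5 heterozygous and knockout lists, and at 105126260 to 105126760 at P0. The peak centres lay within 0.059 kb of the annotated end in all 5 lists, and the P3 list had no peak there. At P3 the nearest peak was 17.3 kb from that end and 14.5 kb from the other. The antisense gene *Wt1os* ends 0.019 kb below *Wt1*, and the peaks cover both ends, so the site cannot be assigned to 1 of the 2 genes.

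Inside *Wt1*, different sites were present at different stages. A site 26.7 kb above the lower end was present in both E13.5 lists and in no later list. Sites at 8.0 and 17.4 kb were absent from both E13.5 lists and from P3, and were found in the P0 list and both E16.5 lists. A site at 20.5 kb was present in both E16.5 lists only. In *Wt1os*, a site 12.4 kb below *Wt1* was found in both E13.5 lists and in no later list. A site 17.6 kb below was found in both E13.5 lists, in the E16.5 knockout list and at P3. Of the *Wt1* sites, the one between genes 14.8 kb above the upper end was present in all 6 lists. None of the 6 sites in or at the end of *Wt1* was present at P3.

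*Gata4* (gene ID 14463) spans 63198914 to 63271712 on chromosome 14, bounds that cover 2 curated and 2 predicted transcripts. Its window held 3 peaks in both E13.5 lists, 3 in E16.5 heterozygous and 4 in E16.5 knockout cells, 5 at P0 and 3 at P3. Inside the gene, 2 sites were present in all 6 lists. The first lay at 63245147 to 63245647 in E13.5 heterozygous cells and the second at 63255696 to 63256196, which are 46.5 and 57.0 kb above the lower end. The gene table gives only outer bounds, so a transcription start inside the bounds would not be counted as a gene end. Whether either of these 2 sites lies at such a start was not tested. Another site, 41.8 kb above the lower end, was present in E16.5 knockout cells and at P0, and one at 69.4 kb at P0 only. The site below the gene lies at the end of *Neil2*, a DNA repair gene, and was present in all 6 lists.

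*Nr5a1* (gene ID 26423) encodes steroidogenic factor, a nuclear receptor that acts on genes of steroid synthesis and on *Amh*. It spans 38692656 to 38714542 on chromosome 2 and is known to be transcribed from its upper end. Its window held 2, 2, 2, 1, 3 and 1 peaks in the order of lists used above. The only site inside the gene, 2.48 kb below the upper end, was at 38711815 to 38712315 in E13.5 heterozygous and 38711768 to 38712268 in E13.5 knockout cells. It was absent from both E16.5 lists, present at P0 at 38711841 to 38712341 and absent at P3. A peak 4.94 kb above the gene was found in E16.5 heterozygous cells only. The site present in all 6 lists lay 3.65 kb below *Nr5a1*, at the end of *Adgrd2-ps*, a transcribed pseudogene.

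The Leydig cell genes, which encode steps of steroid synthesis, held 14 of the 93 peaks (15.1%) in 30.1% of the window length. *Cyp17a1* (gene ID 13074), whose enzyme turns progestins into androgens, spans 46667165 to 46673000 on chromosome 19. Its window held 2 peaks in E13.5 heterozygous cells and 1 in each other list. The peak in all 6 lists was that of *Borcs7*, printed above, 17.1 kb above *Cyp17a1*. The other, at 46670661 to 46671161 in E13.5 heterozygous cells, was the only peak within *Cyp17a1* in any list. It also lies within *Gm41857*, a long non-coding RNA gene that overlaps *Cyp17a1*.

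*Star* (gene ID 20845) spans 25808474 to 25815982 on chromosome 8. Its window held 1, 2, 1, 0, 0 and 1 peaks. The recurrent site lay between *Lsm1* and *Star*, 2.1 kb below the lower end, from which *Star* is known to be transcribed. It was at 25806117 to 25806617 in E13.5 heterozygous, 25806118 to 25806618 in E13.5 knockout and 25806156 to 25806656 in E16.5 heterozygous cells, and at 25806108 to 25806608 at P3. The E16.5 knockout and P0 lists had no peak there, and their nearest peak to either end of *Star* was 22.9 kb away. A second peak, in E13.5 knockout cells only, lay inside *Ash2l*, a neighbour that encodes a histone methyltransferase subunit.

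*Hsd3b1* (gene ID 15492) spans 98842356 to 98859794 on chromosome 3, in a cluster of related enzyme genes. Its window held 2 peaks in E16.5 knockout cells and 0 in each of the other 5 lists. Among all protein-coding genes, a window without a peak was found in 12.1% to 20.1% of genes in those 5 lists. The E16.5 knockout peaks lay at 98822875 to 98823375, near the end of the pseudogene *Gm12428*, and at 98833731 to 98834231, between genes and 8.38 kb below *Hsd3b1*. The treatment of reads that match several related copies is not given in the sources used here.

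**Figure D3:**
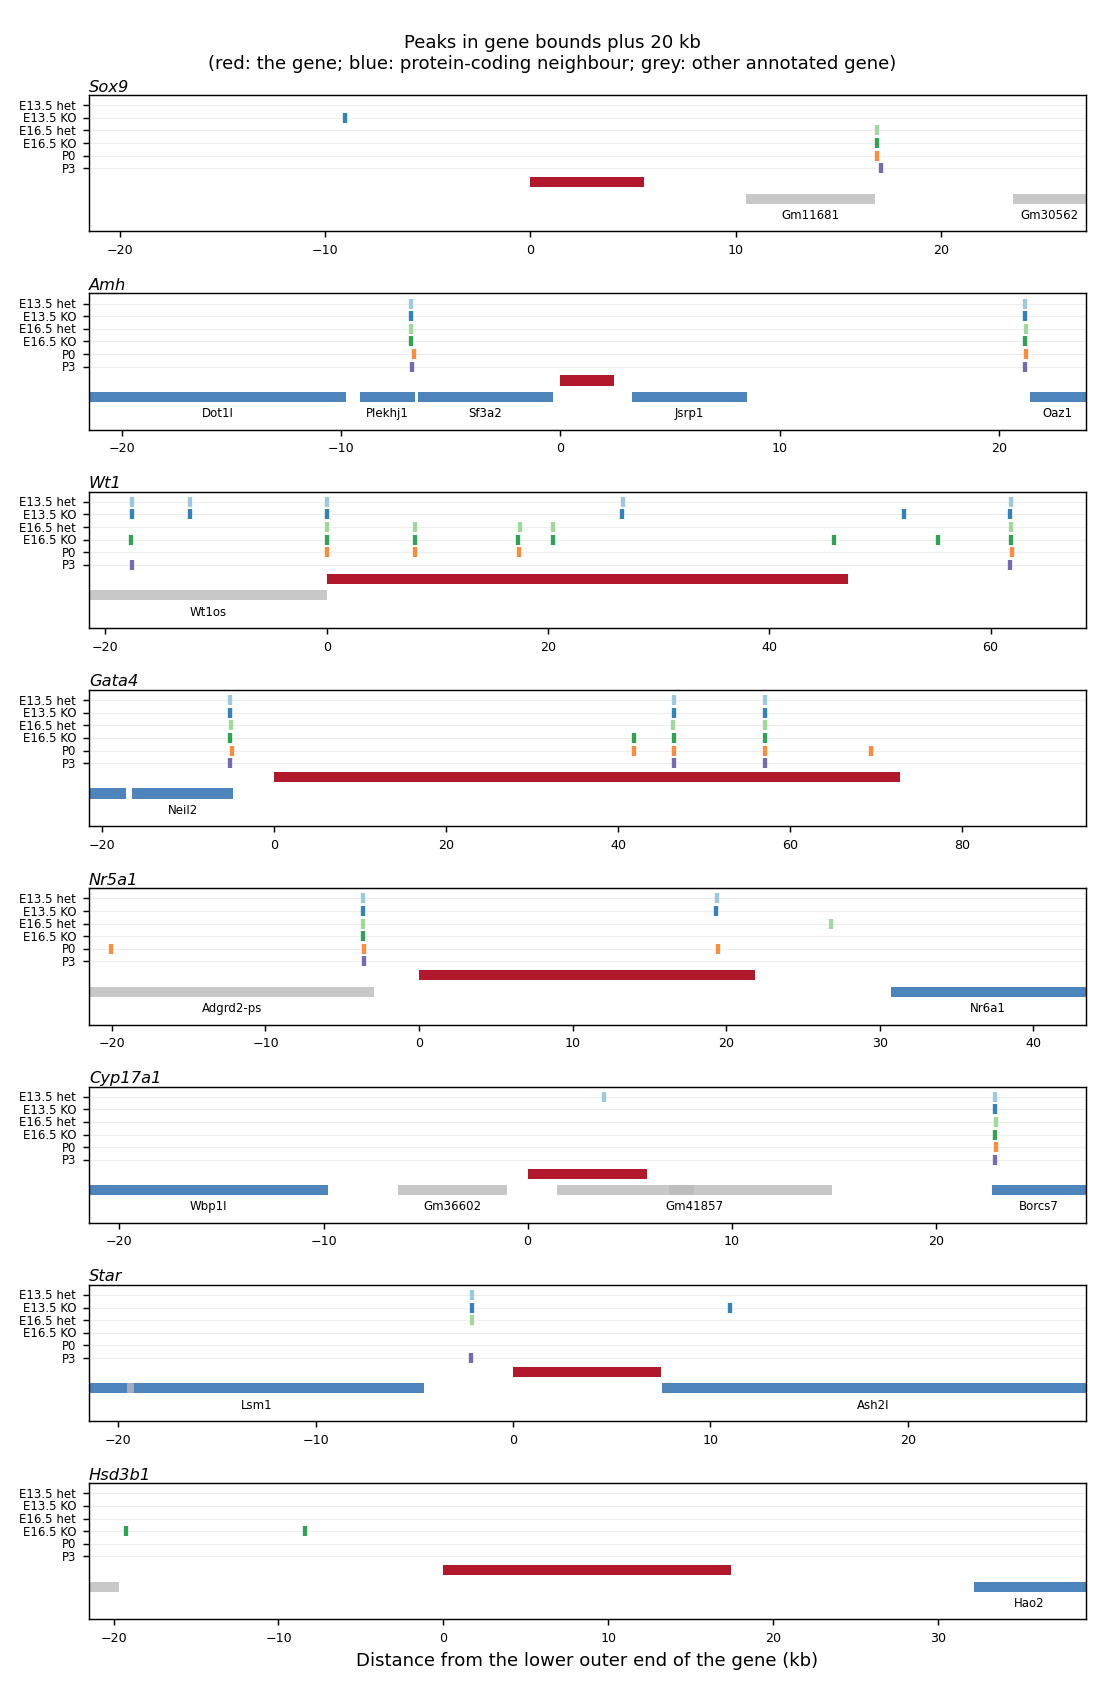
Peaks in the window of each of the 8 genes, with 1 panel per gene and 1 row of ticks per peak list. The x axis is the distance in kb from the lower outer end of the gene, a tick is the centre of a peak, the red bar is the gene, blue bars are protein-coding neighbours and grey bars other annotated genes. Ticks line up over all 6 rows at *Plekhj1*, *Oaz1*, *Neil2*, *Borcs7* and *Adgrd2-ps*, inside *Gata4* and 14.8 kb above *Wt1*. No tick falls within *Sox9*, *Amh*, *Star* or *Hsd3b1*.

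The distance from the nearer outer end to the nearest peak shows the same genes without a threshold at 1000 bp. Over all protein-coding genes the median distance was 0.132 to 0.228 kb, depending on the list. Of the 8 genes, 7 were farther than that median in each of the first 5 lists and 8 at P3. *Hsd3b1* was the most distant in 5 lists, at 81.3 kb in both E13.5 lists, 55.8 kb in E16.5 heterozygous cells, 55.9 kb at P0 and 45.9 kb at P3, and it stood at 8.12 kb in E16.5 knockout cells. Between 6.58% and 11.4% of all protein-coding genes were as far or farther in those 5 lists. *Sox9* stood at 23.2 kb in E13.5 heterozygous, 8.76 kb in E13.5 knockout cells and 11.1 to 11.3 kb in the later lists. *Amh* varied least, from 6.4 to 6.55 kb, which is the distance to the *Plekhj1* and *Sf3a2* site. *Gata4* ranged from 3.15 to 4.91 kb and *Nr5a1* from 2.2 to 3.43 kb. *Cyp17a1* stood at 1.84 kb in E13.5 heterozygous cells and at 16.8 or 16.9 kb in the other lists.

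**Figure D4:**
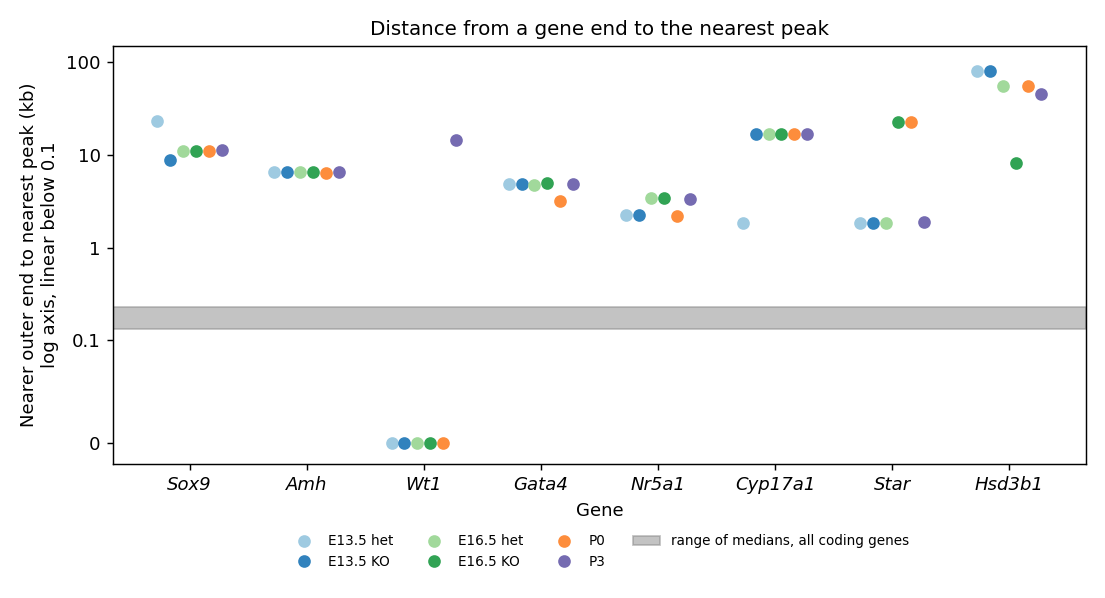
Distance from the nearer outer end of each of the 8 genes to the nearest peak (y axis, kb, logarithmic above 0.1 and linear below), with 1 point per peak list. The grey band is the range over lists of the median of all protein-coding genes, 0.132 to 0.228 kb. *Wt1* is at 0 in 5 lists and at 14.5 kb at P3, and every point of the other 7 genes is above the band.

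The genotypes were compared at E13.5 and E16.5 by whether a window peak overlapped any peak of the other genotype at that stage. At E13.5, 3 of 17 knockout peaks (17.6%, 95% Wilson interval 6.19 to 41.0) and 1 of 15 heterozygous peaks (6.67%, 1.19 to 29.8) were private to a genotype. Over the complete lists the shares were 19.6% and 21.3%, both within these intervals. At E16.5, 6 of 19 knockout peaks (31.6%, 15.4 to 54.0) and 2 of 15 heterozygous peaks (13.3%, 3.74 to 37.9) were private, against 23.5% and 18.6% of the complete lists, again within the intervals. The intervals cover counting error over peaks only. Gene by gene, the knockout list had more window peaks at 3 of 8 genes, fewer at 1 and as many at 4 at E13.5, and more at 3, fewer at 2 and as many at 3 at E16.5. Over all protein-coding genes, 18.2% had more, 17.5% fewer and 64.3% as many at E13.5, and 23.4% had more, 15.6% fewer and 61.0% as many at E16.5. 

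The private peaks were spread over genes of different cell types. The 3 E13.5 knockout peaks were those below *Sox9*, above *Wt1* and inside *Ash2l* beside *Star*, and the E13.5 heterozygous peak was that inside *Cyp17a1*. At E16.5, *Wt1* had 3 of the 6 knockout peaks, *Hsd3b1* 2 and *Gata4* 1. The 2 heterozygous peaks were those above *Nr5a1* and below *Star*. The E16.5 knockout list is the longer of the 2 lists of its stage, with 57117 peaks against 53687, and the part of list length in these counts was not tested. At its own stage, each private peak rests on 1 list. The E16.5 private sites 17.6 kb below *Wt1*, 41.8 kb into *Gata4* and 2.1 kb below *Star* were also found at other stages.

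Between stages, 9 of the 30 sites (30.0%) were present in all 4 fetal lists, against 18.6% of all 107032 sites. Another 3 of the 30 (against 8.53% of all sites) were in both E13.5 lists and neither E16.5 list: those 26.7 kb into *Wt1*, in *Wt1os* 12.4 kb below *Wt1*, and in *Nr5a1*. The reverse held for 4 of the 30 (13.3%, against 19.0% of all sites), those above *Sox9* and 8.0, 17.4 and 20.5 kb into *Wt1*. After birth, 16 sites (53.3%) were present at P0 and 11 (36.7%) at P3, with 9 (30.0%) in common. Of all sites, 62.8% were present at P0, 41.8% at P3 and 35.2% at both. The P3 list, with 44760 peaks, is shorter than the P0 list (67258) and longer than both E13.5 lists (40448 heterozygous, 39559 knockout). The windows held 11 peaks at P3, 16 at P0, and 15 (heterozygous) and 17 (knockout) at E13.5. The part of list length in these counts was not tested. The sites in or at the end of the 8 genes numbered 2 at P3, and both were in *Gata4*.

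Genes of other cell types were counted in the same way, with a peak within 1000 bp of an outer end, from lists of genes by cell type. Of 10 further Sertoli cell genes, 6 or 7 had such a peak, depending on the list, and of 8 further gonadal somatic genes 4 to 6. Of 7 further Leydig cell genes, 2 or 3 had one. These counts stand beside a share of 58.3% to 63.0% of all protein-coding genes. By this measure, the low count of the 8 genes was not found in the further Sertoli and gonadal lists. The further Leydig list, at 28.6% to 42.9%, stood below all protein-coding genes. By promoter windows, described below, 6 of 8 further Sertoli promoters had no peak in any list, against 53.5% of all promoters. *Sox8*, *Dhh*, *Cldn11*, *Clu* and *Aard* of the Sertoli list, and *Lhx9*, *Zfpm2* and *Nr0b1* of the gonadal list, had a gene-end peak in all 6 lists. *Cyp11a1* and *Lhcgr* of the Leydig list did as well. Such a peak in all 6 lists was found at 52.0% of all protein-coding genes, against 5 of 10 Sertoli, 3 of 8 gonadal and 2 of 7 Leydig genes of these lists. *Ptgds*, *Fgf9*, *Hsd17b3*, *Insl3*, *Hsd3b6* and *Pdgfra* had none in any list. A gene-end peak need not lie at the promoter window. The promoter windows of *Dhh* and *Lhx9* had no peak in any list, and that of *Nr0b1* had one in 3 lists. Those of *Sox8*, *Cldn11* and *Lhcgr* had one in all 6.

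Among 8 genes of endothelial and blood cells, *Kdr* and *Tek* had a gene-end peak in all 6 lists. *Pecam1*, *Cdh5*, *Ptprc*, *Csf1r*, *Adgre1* and *Cx3cr1* had none in any list. Of 16 germ cell genes, 10 or 11 had one. Those in all 6 lists included *Ddx4*, *Dazl*, *Piwil4*, *Mael*, *Mov10l1*, *Kit*, *Zbtb16* and *Sycp3*, and *Nanos2*, *Piwil2* and *Tdrd1* had one in none. The germ cell list, with 56.2% of its genes in all 6 lists and 18.8% in none, stood near all protein-coding genes, at 52.0% and 31.9%. The promoter window of *Dazl* had no peak in any list, while those of *Ddx4*, *Mael*, *Mov10l1*, *Kit* and *Sycp3* had one in all 6.

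*Cyp11a1*, the enzyme that starts steroid synthesis in Leydig cells, shows what a gene-end peak can stand for. The promoter table gives 2 starts of this gene, both printed because they differ in accessibility.

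*Cyp11a1*, chr9:57997774-57998073, plus strand, a peak in all 6 lists: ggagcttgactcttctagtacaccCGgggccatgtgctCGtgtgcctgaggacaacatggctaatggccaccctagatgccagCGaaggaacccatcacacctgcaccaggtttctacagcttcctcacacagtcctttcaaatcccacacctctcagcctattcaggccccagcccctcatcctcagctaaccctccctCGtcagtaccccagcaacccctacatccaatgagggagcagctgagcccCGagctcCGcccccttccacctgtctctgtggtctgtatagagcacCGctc

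*Cyp11a1*, chr9:58014702-58015001, plus strand, no peak in any list: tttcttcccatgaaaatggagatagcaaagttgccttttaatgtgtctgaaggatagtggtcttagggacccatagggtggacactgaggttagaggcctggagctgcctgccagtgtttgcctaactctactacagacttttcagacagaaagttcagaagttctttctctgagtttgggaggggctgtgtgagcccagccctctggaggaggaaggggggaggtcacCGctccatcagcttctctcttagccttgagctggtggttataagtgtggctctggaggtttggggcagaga

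The first window held 7 CpGs at 58.3% GC and the second, farther downstream, 1 CpG at 51.0%. The gene-end peak of *Cyp11a1* therefore covers 1 of these 2 starts and not the other. By promoter windows, no peak in any list was found at 6 of 8 Sertoli, 5 of 7 Leydig, 4 of 7 gonadal somatic, 3 of 5 endothelial and blood and 8 of 17 germ cell promoters of the further lists. Over all 32851 promoters the share was 53.5%.

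The pattern of gene-end peaks at *Wt1*, present in all lists but P3, was found at 257 of 21887 protein-coding genes (1.17%). Of the 49 genes in the further lists, *Nr2f2* and *Tcf21*, both transcription factors of interstitial progenitors, had the same pattern over the 6 lists. This pattern counts peaks within 1000 bp of either outer end, and it was not shared by their promoter windows. The window of *Nr2f2* had no peak in any list, and that of *Tcf21* had one in the E13.5 knockout list only.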

How the data were processed

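The 16 ATAC-seq samples were grouped by stage and genotype from their titles. The authors deposited 8 lists with 3 columns: chromosome, start and end of each peak. The build is mm10, and bcl2fastq 2.20, cutadapt 1.18, Bowtie2 2.3.4.1, deepTools 3.5.0 and HOMER 4.10 are named without a role, per the submitters' processing notes. The peak caller, its threshold and any pooling of samples are not given in the sources used here. Fixed-width peaks keep position and discard extent.

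Peaks were read as GRCm38 and written 1-based. Gene bounds came from RefSeq GRCm38.p6, whose table gives no strand. A window is the bounds plus 20 kb on each side. A peak counted with at least 1 bp in it, and at a gene end within 1000 bp of either outer end. Overlapping peaks of different lists formed sites. Gene direction, where stated, is general knowledge. Overlap code was tested on simulated data. Python 3.11.15, numpy 2.4.6, pandas 2.3.3, scipy 1.17.1 and matplotlib 3.10.9 were used.

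All 8 genes are named. Of the further lists, genes with a gene-end peak in 0 or 6 lists, or with the pattern of *Wt1*, are named. One listed marker gene is not reported here. Genes, lists and tests were chosen with earlier results of these data known, and the promoter comparison, the site stages and the counts over all sites were chosen after the peaks were seen. Alternatives were other flanks, gene-end windows and overlap rules.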

Additional observations from a re-analysis of the deposited data

Results flagged for a closer look

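*Star* was the only one of the 8 genes whose genotype difference in window peaks had opposite signs at the 2 fetal stages. The knockout list held 1 more peak than the heterozygous list at E13.5 (2 against 1), and the difference at E16.5 was -1 (0 against 1). The peaks differ: the E13.5 excess was the peak inside *Ash2l*, and the E16.5 difference was the site 2.1 kb below *Star*. Since no list belongs to a single sample, this change of sign was not tested.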

How the results depend on the processing

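No paired analysis was possible because the peak lists are not split by sample, and leaving out a replicate was not possible for the same reason. A stricter threshold was not run, since peaks carry no score. Transcription starts alone were not run, since only *Hsd3b1* of the 8 genes has one in the tables. Of 68 recomputed values, 61 stayed within 1.5 times the reported count or within its Wilson interval and 7 moved. Those 7 were counts of window peaks. With a flank of 50 kb the windows held 36 (E13.5 heterozygous), 34 (E13.5 knockout), 32 (E16.5 heterozygous), 39 (E16.5 knockout), 34 (P0) and 29 (P3) peaks, and with 10 kb the P3 count fell to 6. Wider windows hold more peaks by construction. Gene-end windows of 500 bp kept all 36 counts, those of the 8 genes included, within 1.5 times. Unknown depth limits every absence of a peak.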
